A study of Mus musculus with 24 samples.

Results

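The 9 genes described here encode interferon-inducible GTPases of the mouse. They are 3 guanylate-binding proteins (Gbp2, Gbp4 and Gbp6) and 6 immunity-related GTPases (Irgm1, Igtp, Iigp1, Ifi47, Tgtp1 and Tgtp2). They were picked by gene symbol from the 55401 genes of the deposited files, and the estimated counts of their transcripts were summed by gene. All 9 were found, and all 9 passed the filter on low counts that left 3799 genes for testing.

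Interferons, above all interferon gamma from activated T cells and natural killer cells, switch these genes on, in part through the transcription factor IRF1. Guanylate-binding proteins assemble on the membranes of bacteria and of vacuoles that hold parasites, where they help to break them open and to bring inflammasome caspases into play. Immunity-related GTPases act beside them: Irgm1 and Igtp (also called Irgm3) sit on the cell's own membranes and keep the effector proteins in check, while Iigp1, Ifi47 (Irgd) and the Tgtp proteins (Irgb6) load onto the vacuole. In the intestine the family is known from defence against intracellular microbes and from epithelial and myeloid cells exposed to interferon.

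The study measured RNA from male C57BL/6 mice 11 weeks old in 24 bulk SMART-seq2 libraries, a full-length cDNA method for small amounts of RNA. By their labels, the 6 groups of 4 libraries were propyzamide or vehicle, each of them unstimulated, 3 h after anti-CD3 or 24 h after anti-CD3. Propyzamide is a herbicide, and anti-CD3 is an antibody against a signalling chain of the T cell receptor, which activates T cells. The series names a model of inflammatory bowel disease and T cells, but the sources used here give no tissue, cell sort, dose or stimulation protocol.

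The libraries were shallow, with 1 exception, and this limits every value below. Total estimated counts were 438750 to 2072033 in 23 libraries and 9812458 in replicate 3 of the propyzamide 24 h group, called the deepest library here. Named protein-coding genes took 3.75% to 9.63% of the counts in the 23 libraries and 29.9% in the deepest. The 9 GTPases together had 8 to 339 counts per library in the 23, and 5898 of their 7722 counts (76.4%) lay in the deepest. The libraries also carried 1 of 2 i5 index sequences: one in the unstimulated libraries of both treatments and in vehicle 3 h libraries, the other in the remaining 3 groups. The index stayed the same in the comparisons of vehicle 3 h with unstimulated, of propyzamide with vehicle in unstimulated libraries and at 24 h, and of propyzamide at 24 h with 3 h. In every other comparison below, index and group cannot be told apart. Nothing in the labels says that replicates are separate animals, so p-values measure the spread between these libraries only. In bulk RNA, fewer cells of a type and less RNA per cell cannot be told apart.

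By place in the GRCm38 genome, 5 of the 9 genes lie on chromosome 11 (the place of Iigp1 is given with its values). Irgm1 (ENSMUSG00000046879.7) is at 48861968 to 48871683 on the minus strand, Tgtp1 (ENSMUSG00000078922.9) at 48985327 to 48994172 and Tgtp2 (ENSMUSG00000078921.3) at 49057194 to 49064206, both minus, followed by Ifi47 (ENSMUSG00000078920.3) at 49076587 to 49096974 on the plus strand. Igtp (ENSMUSG00000078853.8) is further along, at 58199556 to 58207591 on the plus strand. Gbp2 (ENSMUSG00000028270.12) is on chromosome 3 at 142620602 to 142638008, plus strand. Gbp4 (ENSMUSG00000079363.7) and Gbp6 (ENSMUSG00000104713.4) are both on chromosome 5, minus strand, at 105115767 to 105139586 and 105270702 to 105293698.

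The promoters of 5 members hold a short shared motif, and the stretches around it are shown so that the letters can be compared. The motif searched was GAAANNGAAA on either strand, the core that IRF family factors bind. The windows are from RefSeq on GRCm38.p6 and run from 250 bases before to 50 bases after each gene's start. Of 6 members with a promoter in the table, 5 hold the motif, against 3.44% of all 32851 promoter windows (1131 windows). Each line gives 100 bases around the match, 5′ to 3′ on the strand of the gene, with the match in capitals. Gbp2 is at chr3:142620559-142620658 (plus strand), Irgm1 at chr11:48871390-48871489, Tgtp1 at chr11:48992269-48992368 and Tgtp2 at chr11:49064228-49064327 (all minus strand), and Igtp at chr11:58199477-58199576 (plus strand).
Gbp2: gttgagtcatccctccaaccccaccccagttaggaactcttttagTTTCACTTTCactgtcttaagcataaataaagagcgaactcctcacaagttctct
Irgm1: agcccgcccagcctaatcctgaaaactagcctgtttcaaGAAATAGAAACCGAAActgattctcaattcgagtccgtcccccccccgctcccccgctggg
Tgtp1: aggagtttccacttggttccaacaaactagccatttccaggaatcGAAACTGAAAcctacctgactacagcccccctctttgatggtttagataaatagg
Tgtp2: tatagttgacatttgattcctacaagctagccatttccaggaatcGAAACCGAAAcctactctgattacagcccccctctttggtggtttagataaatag
Igtp: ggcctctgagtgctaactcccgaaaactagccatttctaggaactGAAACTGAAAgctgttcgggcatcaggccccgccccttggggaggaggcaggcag

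Counted from the RefSeq start of each gene, the match begins 59 bases before the start of Gbp2, where it reads on the opposite strand, 77 before Tgtp1, 70 before Tgtp2 and 34 before Igtp. Irgm1 holds a pair of overlapping matches, 30 and 24 bases before its start. The RefSeq starts differ from the ends of the gene spans given above, and the matches of Gbp2, Tgtp1 and Irgm1 lie inside those spans. The Ifi47 window does not hold the motif. Line by line and without gaps, Tgtp1 and Tgtp2 share 64 of 100 bases and Tgtp2 and Igtp share 57, against 16 to 22 for Gbp2 with each of the others. These matches describe the sequence and say nothing about binding in these libraries.

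Summed over the 9 genes, the family stood higher after anti-CD3 than without it under both treatments. Levels are in CPM, the count of a gene scaled to a common total of the counts in tested genes after TMM normalization. With vehicle, the sum was 32.9 to 203 CPM at 3 h and 82.6 to 231 CPM at 24 h, against 16.5 to 44.1 CPM in unstimulated libraries. With propyzamide it was 45.3 to 164 CPM at 3 h and 59.6 to 184 CPM at 24 h, against 13.4 to 36.9 CPM. In 3 of these 4 sets no anti-CD3 library overlapped the unstimulated ones of its treatment. The exception was vehicle at 3 h, where the lowest anti-CD3 library lay within the unstimulated range. Scaled instead to the counts in named protein-coding genes, the family mean with vehicle was 1664 ± 1136 CPM at 3 h and 1907 ± 969 CPM at 24 h, against 439 ± 166 CPM unstimulated. With propyzamide it was 1719 ± 609 and 1292 ± 531 CPM, against 325 ± 157 CPM (SD, n = 4 each).

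**Figure D1:**
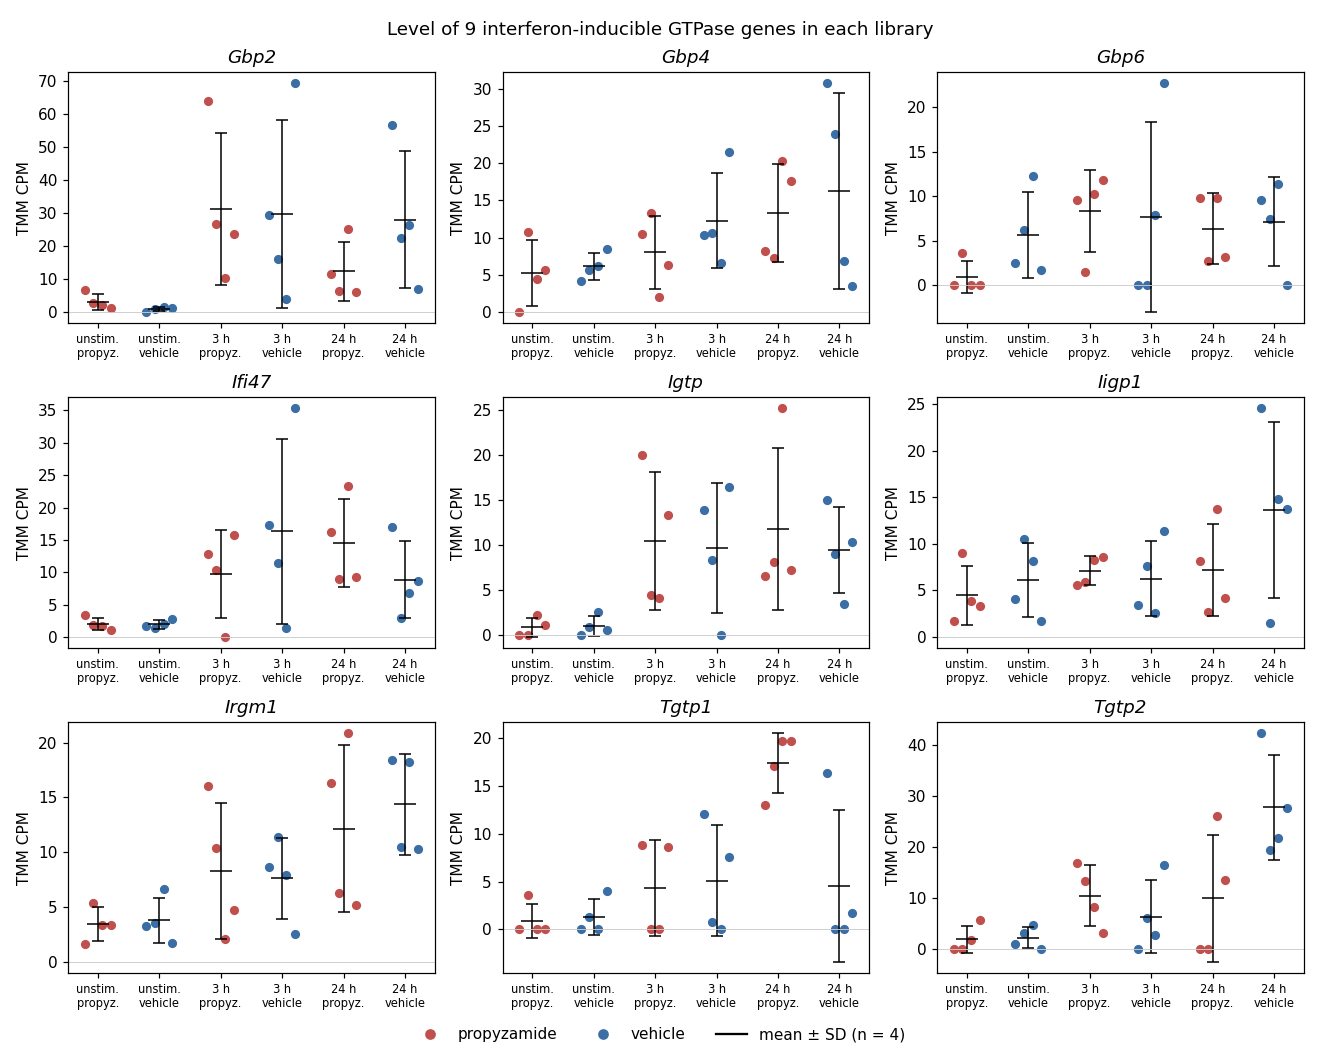
Level of each of the 9 GTPase genes in TMM CPM (vertical axis, linear) in every library, by group along the horizontal axis. Points are libraries, red for propyzamide and blue for vehicle, and bars are the mean ± SD of 4 libraries. Gbp2, Igtp and Ifi47 sit near 0 without stimulation and higher in most anti-CD3 libraries, while Gbp4 and Iigp1 already have several CPM without it.

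Gbp2, a guanylate-binding protein that is recruited early to parasite vacuoles, rose at 3 h under both treatments and at 24 h with vehicle, and had the largest fitted change of the 9 in these 3 comparisons. With vehicle it had 29.4, 16.0, 3.94 and 69.4 CPM at 3 h and 56.6, 22.4, 26.3 and 6.88 CPM at 24 h, against 0, 0.877, 1.54 and 1.14 CPM in unstimulated libraries. Every stimulated library stood above every unstimulated one, although the unstimulated values rest on 7 counts in all. Gbp2 rose by a log2 fold change of 4.87 ± 0.84 (SE) at 3 h (edgeR adjusted p = 0.00442) and of 4.85 ± 0.84 at 24 h (edgeR adjusted p = 0.0049). The edgeR test at an adjusted p of 0.05 called 0.184% of all tested genes higher at 3 h and 0.316% at 24 h, and Gbp2 is 1 of 9 members in each. The 3 h call held without each of the 8 libraries in turn, at adjusted p values of 0.000302 to 0.0355. The 24 h call was lost without vehicle unstimulated replicate 2 (log2 fold change 4.81, edgeR adjusted p = 0.0540). Both calls were lost with limma-voom (4.14 at 3 h and 4.58 at 24 h, adjusted p = 0.311 and 0.137) and with limma on log2(TPM + 1) (1.84 and 2.10, adjusted p = 0.761 and 0.165).

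With propyzamide, Gbp2 had 64.1, 26.7, 10.3 and 23.5 CPM at 3 h and 11.4, 6.32, 25.3 and 6.23 CPM at 24 h, against 6.68, 2.70, 2.23 and 1.12 CPM in unstimulated libraries. The 3 h libraries stood clear of the unstimulated ones, and at 24 h the lowest libraries fell inside the unstimulated range. Gbp2 rose at 3 h by 3.46 ± 0.79 on the log2 scale (edgeR adjusted p = 0.0323), where 0.158% of tested genes were called higher. That call depended on single libraries: it held without propyzamide unstimulated replicate 1 or 3 h replicate 3 and was lost without each of the other 6 libraries, with adjusted p values up to 0.147. It was also lost with limma-voom (3.48, adjusted p = 0.154), with limma on log2(TPM + 1) (1.88, adjusted p = 0.285) and with edgeR on only the groups compared (3.23, adjusted p = 0.0858). At 24 h the fitted change was 2.20 ± 0.79 (edgeR adjusted p = 0.242), and no member was called among the 0.0526% of genes called higher.

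Gbp4 and Gbp6, neighbours on chromosome 5 within the same guanylate-binding gene cluster, did not pass the test in any comparison. Gbp4 averaged 12.3 ± 6.40 CPM at 3 h and 16.2 ± 13.2 CPM at 24 h with vehicle, against 6.12 ± 1.81 CPM unstimulated. With propyzamide it averaged 8.03 ± 4.92 and 13.3 ± 6.60 CPM, against 5.21 ± 4.44 CPM. The SD at 24 h with vehicle is wide because libraries 1 and 2 had 30.7 and 23.9 CPM and libraries 3 and 4 had 6.85 and 3.44 CPM. Gbp6 averaged 7.65 ± 10.7 and 7.11 ± 5.01 CPM at 3 h and 24 h with vehicle, against 5.65 ± 4.83 CPM, and its 3 h libraries ran from 0 to 22.7 CPM. With propyzamide it averaged 8.29 ± 4.63 and 6.34 ± 3.96 CPM, against 0.900 ± 1.80 CPM, where 3 of the 4 unstimulated libraries had no count.

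Gene sums hide which transcripts the counts were placed on, and for Gbp6 the division differed between anti-CD3 and unstimulated libraries. The single protein-coding model of Gbp6 had no count in any of the 8 unstimulated libraries and an estimated count of at least 1 in 7 of the 16 anti-CD3 libraries. Its summed count was 4.28 at 3 h and 19.9 at 24 h with vehicle, and 13.5 at 3 h and 205 at 24 h with propyzamide (4.04 without the deepest library). The other Gbp6 models, a nonsense-mediated decay and a retained-intron transcript, had 19.0 and 9.61 counts at 3 h and 24 h with vehicle, against 44.9 unstimulated. With propyzamide they had 18.4 counts at 3 h and 8.24 at 24 h without the deepest library, against 4.03 unstimulated. Thus the coding share was 18.4% at 3 h and 67.4% at 24 h with vehicle, and 42.3% at 3 h and 32.9% at 24 h with propyzamide without the deepest library. The summed counts are not scaled to library depth, which differed between the groups, so they do not compare levels. Gbp6 also overlaps the gene model Gm43302, which holds 67.8% of its 31-base stretches, so placement between the 2 is uncertain.

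Most Gbp4 counts lay on a nonsense-mediated decay and a retained-intron model, with 15.6% on coding models at 3 h and 4.04% at 24 h with vehicle, against 0.584% unstimulated. With propyzamide the Gbp4 coding share was 0.209% at 3 h and 5.38% at 24 h without the deepest library, against 6.00% unstimulated. Gbp2 was the opposite case, since its coding model carried 96.0 counts at 3 h and 118 at 24 h with vehicle, and 132.9 at 3 h with propyzamide. Iigp1 stood between them: coding models held 44.7% of its counts at 3 h and 84.9% at 24 h with vehicle, against 28.8% unstimulated. With propyzamide the Iigp1 coding share was 52.4% at 3 h and 57.3% at 24 h without the deepest library, against 4.71%. For Irgm1 the coding share was 59.8% at 3 h and 78.9% at 24 h with vehicle, against 72.5% unstimulated. With propyzamide the order was the other way, with 88.8% at 3 h and 57.1% at 24 h without the deepest library, against 75.2% unstimulated. These shares pool the libraries of a group, were not tested, and depend on how the authors' quantification divided shared sequence.

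**Figure D2:**
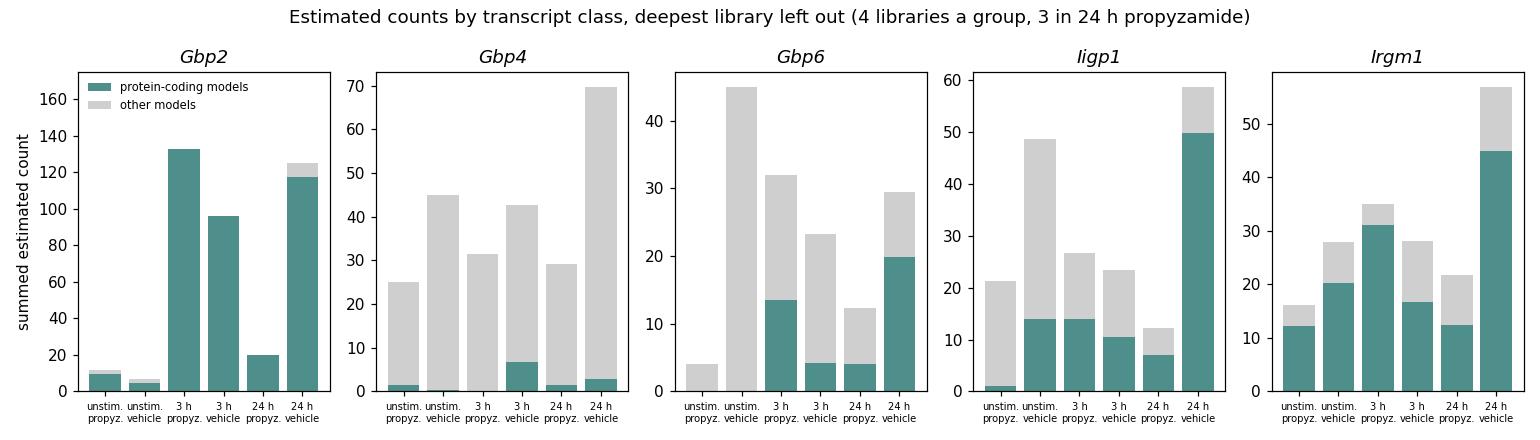
Summed estimated counts (vertical axis, own scale in each panel) of Gbp2, Gbp4, Gbp6, Iigp1 and Irgm1 by group, split into protein-coding transcript models (green) and other models (grey), with the deepest library left out. The counts are not scaled to library depth, which differed between the groups. The coding part of Gbp6 is 0 in both unstimulated groups and 19.9 counts at 24 h with vehicle, while Gbp2 counts after anti-CD3 are nearly all coding.

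Irgm1 and Igtp, the regulatory immunity-related GTPases, had positive fitted changes in all 4 comparisons with unstimulated libraries, and none passed the test. Igtp had 13.8, 8.37, 0 and 16.4 CPM at 3 h and 15.0, 8.96, 3.43 and 10.3 CPM at 24 h with vehicle, against 0, 0.877, 2.56 and 0.568 CPM unstimulated. At 24 h the groups did not overlap, and at 3 h replicate 3 had no count. The fitted log2 fold change was 3.08 ± 0.86 at 3 h (edgeR adjusted p = 0.153) and 3.09 ± 0.85 at 24 h (edgeR adjusted p = 0.127). With propyzamide, Igtp had 20.0, 4.45, 4.11 and 13.3 CPM at 3 h and 6.51, 8.13, 25.2 and 7.27 CPM at 24 h, against 0, 0, 2.23 and 1.12 CPM unstimulated. Neither time overlapped the unstimulated libraries. The fitted changes were 3.34 ± 0.92 (edgeR adjusted p = 0.0754) and 3.54 ± 0.89 (edgeR adjusted p = 0.105).

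Irgm1 had smaller fitted changes from a higher starting level. With vehicle it had 8.65, 11.4, 7.89 and 2.52 CPM at 3 h and 18.4, 10.5, 18.3 and 10.3 CPM at 24 h, against 3.30, 3.51, 6.66 and 1.70 CPM unstimulated. The 24 h libraries stood above all unstimulated ones, and the 3 h libraries overlapped them. The log2 fold change was 1.92 ± 0.57 at 24 h (edgeR adjusted p = 0.174) and 1.01 ± 0.60 at 3 h (edgeR adjusted p = 0.995). With propyzamide it was 1.27 ± 0.63 at 3 h and 1.81 ± 0.60 at 24 h (edgeR adjusted p = 0.38 and 0.221), from 8.29 ± 6.22 and 12.2 ± 7.65 CPM, against 3.44 ± 1.53 CPM.

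Among the effectors taken gene by gene, Ifi47 had the smallest adjusted p. It had 17.3, 11.4, 1.31 and 35.3 CPM at 3 h and 17.1, 2.99, 6.85 and 8.60 CPM at 24 h with vehicle, against 1.65, 1.31, 2.05 and 2.84 CPM unstimulated. As with Igtp, replicate 3 was the low library at 3 h, and the 24 h groups did not overlap. Fitted changes were 3.02 ± 0.72 (edgeR adjusted p = 0.0653) at 3 h and 2.23 ± 0.73 (edgeR adjusted p = 0.258) at 24 h. Without that replicate 3, edgeR called Ifi47 (log2 fold change 3.43, adjusted p = 0.00484) and Igtp (3.51, adjusted p = 0.0368) beside Gbp2 at 3 h with vehicle. With propyzamide, Ifi47 had 12.8, 10.4, 0 and 15.7 CPM at 3 h and 16.3, 9.03, 23.4 and 9.34 CPM at 24 h, against 3.34, 1.80, 1.67 and 1.12 CPM. All 4 of the 24 h libraries stood above the unstimulated ones, with a fitted change of 2.98 ± 0.76 (edgeR adjusted p = 0.108).

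Iigp1 (ENSMUSG00000054072.12, chromosome 18, 60376027 to 60392634, plus strand) builds the coat on parasite vacuoles. It had the smallest fitted change of the 9 at 3 h with vehicle and at 24 h with propyzamide. Iigp1 averaged 6.26 ± 4.03 CPM at 3 h and 13.7 ± 9.46 CPM at 24 h with vehicle, against 6.14 ± 3.96 CPM unstimulated. With propyzamide it averaged 7.10 ± 1.55 and 7.19 ± 4.94 CPM, against 4.48 ± 3.16 CPM. The group ranges overlapped in all of these comparisons, and the 24 h change with vehicle was 1.17 ± 0.61 (edgeR adjusted p = 0.717).

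Tgtp1 and Tgtp2 encode nearly the same T cell-specific GTPase, an effector that marks vacuoles early, and their counts can be read safely only as a sum. Of the 31-base stretches of Tgtp1 transcripts 83.2% also occur in Tgtp2, and of those of Tgtp2 89.2% occur in Tgtp1. How the estimated counts were divided varied from library to library: Tgtp1 received 100%, 100%, 43.0% and 59.4% of the pair in propyzamide 24 h libraries, against 28.3%, 0%, 1.29% and 5.29% in vehicle 24 h libraries. In unstimulated libraries with vehicle it received 1.21%, 33.1%, 0.995% and 100%. Taken alone, Tgtp1 averaged 17.4 ± 3.15 CPM with propyzamide at 24 h, against 4.52 ± 7.94 CPM with vehicle, and Tgtp2 had 9.89 ± 12.5 CPM, against 27.7 ± 10.3 CPM. The opposite differences cancel in the sum, which averaged 27.3 ± 15.1 CPM with propyzamide and 32.3 ± 18.1 CPM with vehicle.

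Summed, the pair rose at 24 h under both treatments. It had 58.7, 19.4, 21.7 and 29.2 CPM at 24 h and 12.1, 6.85, 2.63 and 24.0 CPM at 3 h with vehicle, against 0.826, 4.38, 4.61 and 3.97 CPM unstimulated. Its 24 h libraries stood above all unstimulated ones, with a log2 fold change of 3.17 ± 0.61 (edgeR adjusted p = 0.0152). The 3 h change was 1.63 ± 0.64 (edgeR adjusted p = 0.587). With propyzamide the pair had 13.0, 17.2, 45.7 and 33.2 CPM at 24 h and 25.6, 13.3, 8.23 and 11.8 CPM at 3 h, against 0, 3.60, 1.67 and 5.59 CPM. Neither time overlapped the unstimulated libraries, and the change was 3.32 ± 0.66 at 24 h (edgeR adjusted p = 0.0289) and 2.43 ± 0.69 at 3 h (edgeR adjusted p = 0.0869).

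Both calls of the summed pair were fragile, and summing was chosen after the single genes were seen. Leaving out 1 library kept the propyzamide call in 2 of 8 fits (edgeR adjusted p 0.028 to 0.122) and the vehicle call in 3 of 8 (edgeR adjusted p 0.0117 to 0.0705). The vehicle call was lost without each of the 4 unstimulated libraries and without 24 h replicate 1 (log2 fold changes 2.70 to 3.35 over the 8 fits). The propyzamide call was lost without each of the 4 unstimulated libraries, 24 h replicate 2 or 24 h replicate 4, and held without the deepest library (2.91 to 3.75 over the 8 fits).

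**Figure D3:**
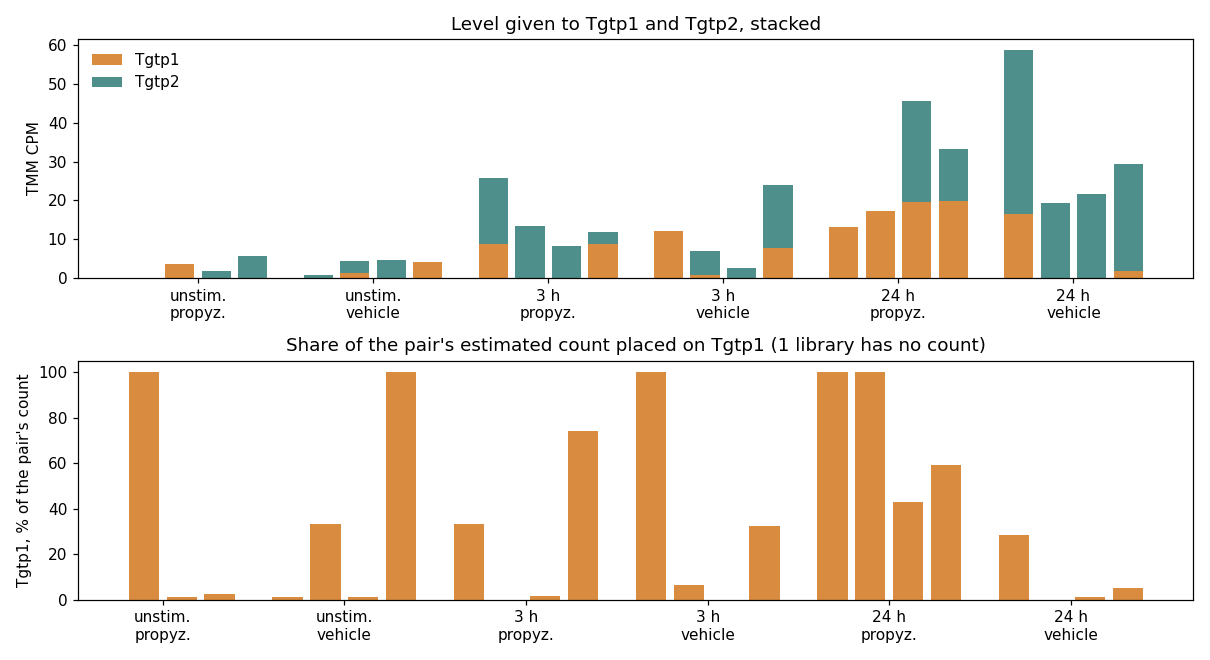
The upper panel stacks the TMM CPM given to Tgtp1 (orange) and Tgtp2 (green) in each library. The lower panel gives the percent of the pair's estimated count that was placed on Tgtp1. The sum stands above the unstimulated libraries in all 8 libraries at 24 h, while the division runs from 0% to 100% between libraries of 1 group.

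Counted over the family, all 9 fitted changes were positive in each of the 4 comparisons with unstimulated libraries, which share those libraries between 3 h and 24 h. Of all tested genes 46.9% were positive at 3 h and 47.9% at 24 h with vehicle, and 44.9% and 51.4% with propyzamide. The median log2 fold change of the 9 with vehicle was 1.51 at 3 h and 1.93 at 24 h, where the median of all tested genes was -0.04 and -0.03. With propyzamide it was 2.46 at 3 h and 2.62 at 24 h, against -0.13 and 0.03 for all tested genes. At 3 h with vehicle 1 of 9 members had every stimulated library above every unstimulated one (1.5% of all tested genes did so), and at 24 h 5 of 9 did (2.95%), namely Gbp2, Ifi47, Igtp, Irgm1 and Tgtp2. With propyzamide 2 of 9 did at 3 h (2.74%), Gbp2 and Igtp, and 3 of 9 at 24 h (4.26%), Ifi47, Igtp and Tgtp1. Tgtp1 and Tgtp2 are counted singly here, although the division of their counts is uncertain. An unadjusted p under 0.05 was found for 5 members at 3 h and 8 at 24 h with propyzamide, and for 3 and 6 with vehicle. Over all tested genes the share was 13.4% and 14.4% with propyzamide and 6.24% and 7.16% with vehicle. All 9 members passed the filter on low counts only with the help of anti-CD3 libraries, since too few unstimulated libraries reached its level. This holds for Gbp2 and Igtp, near 0 CPM without stimulation, and also for Gbp4, Gbp6, Iigp1 and Irgm1. That filter favours positive changes and groups that do not overlap among such genes, so the counts above are a description. When only the 3 h and unstimulated libraries of 1 treatment were used, 1 of the 9 passed it under either treatment.

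**Figure D4:**
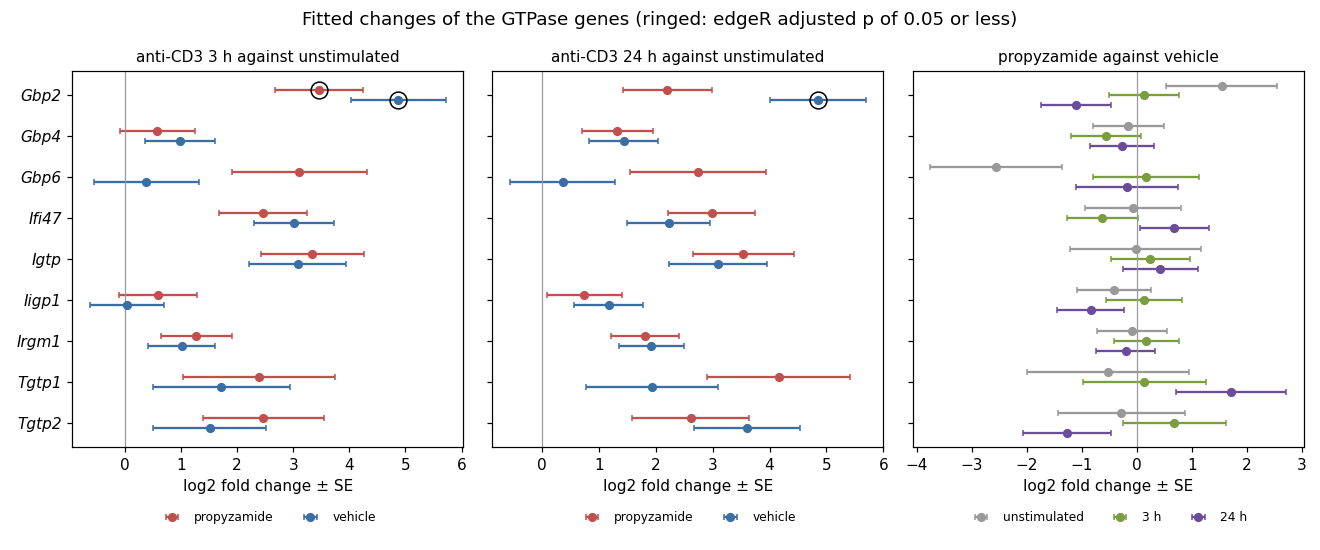
Fitted log2 fold change ± SE of the 9 genes after 3 h (left panel) and 24 h (middle panel) of anti-CD3 against unstimulated libraries, with propyzamide (red) and vehicle (blue), and of propyzamide against vehicle at each stage (right panel). Rings mark an edgeR adjusted p of 0.05 or less. All 36 changes after anti-CD3 are above 0, and 3 of them, all Gbp2, are ringed.

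Between 3 h and 24 h no member passed the test under either treatment. The nearest with vehicle was Tgtp2, with a 24 h against 3 h log2 fold change of 2.10 ± 0.89 (edgeR adjusted p = 0.328), in a comparison where 0% of all tested genes were called and 462 had an unadjusted p under 0.05. The summed Tgtp pair changed by 1.55 ± 0.58 there (edgeR adjusted p = 0.26). With vehicle the fitted change of Gbp2 between the times was -0.02 ± 0.64 and that of Ifi47 was -0.79 ± 0.65. With propyzamide edgeR called 15.2% of all tested genes between the times but none of the 9. Gbp2 with propyzamide averaged 12.3 ± 8.97 CPM at 24 h, against 31.2 ± 23.1 CPM at 3 h (-1.26 ± 0.64, edgeR adjusted p = 0.162).

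Propyzamide against vehicle gave no call for any member at any stage, and edgeR called 0% of all tested genes in these comparisons (128, 114 and 388 genes had an unadjusted p under 0.05 without stimulation, at 3 h and at 24 h). Without stimulation the smallest p among the members was that of Gbp6, with 4 counts under propyzamide and a log2 fold change of -2.56 ± 1.20 (edgeR adjusted p = 1). At 3 h it was that of Ifi47 (-0.63 ± 0.64, unadjusted p = 0.332 from edgeR), and Gbp2 differed by 0.12 ± 0.63. At 24 h it was that of Gbp2, with 12.3 ± 8.97 CPM with propyzamide and 28.0 ± 20.8 CPM with vehicle (-1.11 ± 0.64, edgeR adjusted p = 0.531). The summed Tgtp pair differed by -0.22 ± 0.53 at 24 h (edgeR adjusted p = 0.881). A miss of the threshold does not show equal levels.

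Whether the response to anti-CD3 differed with propyzamide was tested as an interaction, and no member passed (0% of all tested genes were called at 3 h and at 24 h, where 123 and 89 had an unadjusted p under 0.05). The Gbp2 change at 24 h was lower with propyzamide than with vehicle by a fitted -2.65 ± 1.20 (edgeR adjusted p = 1). That value joins a higher unstimulated level with propyzamide, 3.18 ± 2.42 CPM against 0.887 ± 0.651 CPM with vehicle, and the lower 24 h level. For Gbp6 the interaction was 2.73 ± 1.54 at 3 h and 2.38 ± 1.52 at 24 h, and it rests on the 4 counts of the unstimulated propyzamide group.

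Levels between genes were compared in TPM, a unit that accounts for transcript length and scales each library to a common total. In vehicle unstimulated libraries Iigp1 was highest at 1.91 ± 1.21 TPM, followed by Ifi47 at 1.12 ± 0.57 TPM. Tgtp1 and Tgtp2 are left out of these orders, since the division of their counts is uncertain. At 3 h with vehicle Ifi47 (5.58 ± 4.44 TPM) and Gbp2 (5.35 ± 4.56 TPM) led. At 24 h with vehicle Gbp2 led at 5.67 ± 3.31 TPM, then Irgm1 at 2.49 ± 0.70 TPM, while Gbp4, Ifi47, Iigp1 and Igtp lay between 1.98 and 2.12 TPM. The neighbours named here with an SD differ by less than the larger SD of the pair. In the deepest library, where the family was counted best, Ifi47 was highest at 32.1 TPM, then Igtp at 28.0, Gbp2 at 22.1, Irgm1 at 20.3, Gbp4 at 15.2, Iigp1 at 12.6 and Gbp6 at 7.03 TPM. TPM there is higher throughout, beside its larger share of named protein-coding counts, and it is not set against the other libraries.

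Upstream of the family, transcripts of the inducing interferons were near the limit of detection. Ifng, interferon gamma, had 8 counts in 3 of 24 libraries: 1 in propyzamide 3 h replicate 1 and 7 in the propyzamide 24 h group, of which 1 lay outside the deepest library, and none in any vehicle or unstimulated library. Ifnb1, interferon beta, had 1 count in all. Of 14 ligands, inducing cytokines and receptors 3 were tested (Ifnar1, Ifngr1 and Ifngr2), and none passed against unstimulated libraries. At these depths a change of the ligands was not detectable.

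Irf1, one of 14 listed interferon signalling and transcription factor genes, switches on many of these GTPases and did not pass the test against unstimulated libraries. It had fitted changes of 1.51 ± 0.48 at 3 h and 1.57 ± 0.48 at 24 h with vehicle (edgeR adjusted p = 0.317 and 0.204). With propyzamide they were 1.78 ± 0.50 and 1.46 ± 0.50 (edgeR adjusted p = 0.0886 and 0.226). Of the 14 listed genes 7 were tested. At 24 h with vehicle all 7 had positive fitted changes (median 0.84). In that comparison 1 of the 7, not named here, was called higher, where edgeR called 0.316% of all tested genes higher. None of the 7 was called against unstimulated libraries at 3 h or with propyzamide.

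Several other interferon targets rose at 24 h with vehicle. Of 19 listed genes 12 were tested, and all 12 had positive fitted changes there, against 47.9% of all tested genes. Of the 12, 6 rose: Bst2, Cxcl10, Ifi27l2a, Ifitm3, Ly6a and Tap1 (median of the 12 2.17). With vehicle edgeR called 0.316% of all tested genes higher at 24 h and 0.184% at 3 h. Ifi27l2a, which encodes a small interferon-induced membrane protein, averaged 40.4 ± 8.09 CPM at 24 h, against 3.05 ± 2.46 CPM unstimulated (3.64 ± 0.61, edgeR adjusted p = 0.0049). Bst2, the tether of budding virions, rose by 3.38 and Tap1, a peptide transporter for antigen presentation, by 2.89 (edgeR adjusted p = 0.0417 each). Cxcl10, the chemokine that draws activated T cells, had 35 counts at 3 h and 37 at 24 h, against 1 unstimulated (edgeR adjusted p = 0.0373 and 0.0417), and was the single target called at 3 h. With propyzamide 9 of 12 fitted changes were positive at 3 h and 12 of 12 at 24 h (median 0.71 and 1.73), and none passed. The closest were Ifi27l2a (2.79 ± 0.60, edgeR adjusted p = 0.0606) and Ly6a (2.66 ± 0.64, edgeR adjusted p = 0.1), both at 24 h. This list was drawn up with earlier results of these data known. Targets that were low without stimulation passed the filter on low counts only with the help of anti-CD3 libraries, which favours positive changes. Among these are Cxcl10, near 0 CPM without stimulation, and also Tap1 and Ifitm3.

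The machinery that these GTPases work with showed no called change. Of 10 genes of the LC3 conjugation pathway, which directs the effectors to vacuoles, 3 were tested (Atg16l1, Gabarap and Map1lc3b), with median fitted changes at 3 h and 24 h of -0.48 and 0.17 with propyzamide and 0.32 and 0.11 with vehicle. Of 8 inflammasome genes 3 were tested (Casp4, Il1b and Pycard), with medians of -0.15 and -0.27 with propyzamide and -0.03 and -0.46 with vehicle. Of 17 further guanylate-binding, immunity-related, very large and Mx GTPases only 9930111J21Rik2 and F830016B08Rik passed the filter, and neither was called. The others, such as Irgm2 with 34.3 counts and Gbp7 with 137.2 outside the deepest library, were too sparse to test.

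Of 2455 other named protein-coding genes, the 5 whose level followed the summed GTPases most closely over the 24 libraries were Irf1, Tap1, Gzmb, Cxcl10 and Ifitm3. Their Spearman correlations were 0.857, 0.797, 0.775, 0.767 and 0.743, and 0.846, 0.778, 0.759, 0.784 and 0.711 without the deepest library. These are descriptions: all points share depth and the division into stimulated and unstimulated libraries. Within the 16 anti-CD3 libraries the correlation was 0.759 for Irf1, 0.750 for Ifitm3, 0.700 for Tap1 and 0.456 for Cxcl10. Within the 8 unstimulated libraries it was -0.310 for Irf1, 0.381 for Tap1, 0.0818 for Cxcl10 and 0 for Ifitm3. Values for Gzmb within these sets are not reported here. Irf1 averaged 25.1 ± 13.3 CPM at 3 h and 25.5 ± 13.2 CPM at 24 h with vehicle, against 8.78 ± 2.84 CPM, and 26.4 ± 11.2 and 20.8 ± 5.61 CPM with propyzamide, against 7.45 ± 5.23 CPM.

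**Figure D5:**
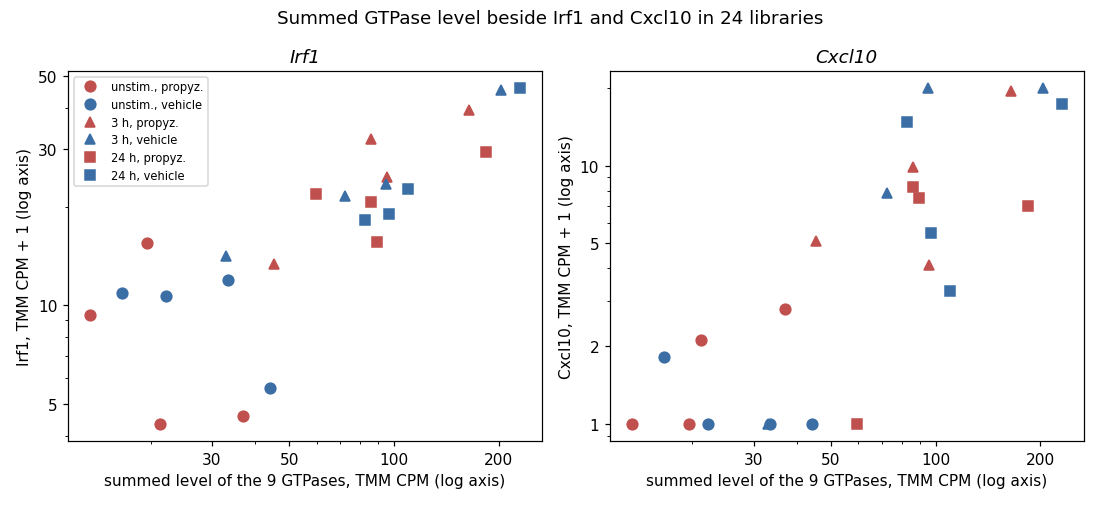
Level of Irf1 (left) and Cxcl10 (right) as TMM CPM + 1 on the vertical axis beside the summed TMM CPM of the 9 GTPases on the horizontal axis, both log axes, with 1 point per library. Circles are unstimulated, triangles 3 h and squares 24 h libraries, red with propyzamide and blue with vehicle. Irf1 and the GTPases are high in the same anti-CD3 libraries (Spearman 0.857 over 24 libraries, 0.759 within the 16 stimulated ones).

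Marker sums of several cell types also differed between anti-CD3 and unstimulated libraries, and they are given here scaled to the counts in named protein-coding genes (CPM of named genes). The 12 intestinal epithelium markers, all detected at 24 h, summed to 349 to 584 at 24 h with vehicle, against 3590 to 4584 unstimulated. With propyzamide their sum was 374 to 7408 at 24 h (median 1087), against 2932 to 10487. Those ranges overlap only through the deepest library, which held the 7408. Of the 9 epithelium markers tested at 24 h none had a positive fitted change under either treatment, and with vehicle Elf3 (-3.46) and Olfm4 (-3.09) fell. The plasma cell sum was 1377 to 1809 at 24 h with vehicle, against 6254 to 10241, and 914 to 6190 with propyzamide, against 5436 to 11053. The 7 B cell markers all had positive fitted changes at 24 h under both treatments, with none called, and summed to 2057 to 3768 with vehicle, against 1204 to 3029, and to 2097 to 4300 with propyzamide, against 1289 to 2752.

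The 11 T cell markers, all detected, summed to 380 to 758 at 3 h and 638 to 1031 at 24 h with vehicle, against 328 to 515. With propyzamide they summed to 127 to 569 at 3 h and 739 to 1443 at 24 h, against 323 to 630, so the 24 h libraries stood above the unstimulated ones under both treatments. The natural killer and innate lymphoid sum at 24 h was 297 to 1151 with vehicle, against 115 to 306, and 265 to 578 with propyzamide, against 81.8 to 379. Of the 8 markers in that sum, Gzma had the most counts outside the deepest library (225, with Klrk1 next at 108), and 1 of the 8 was tested. The macrophage and monocyte sum at 24 h was 784 to 1380 with vehicle, against 952 to 1534, and 854 to 1794 with propyzamide, against 671 to 1729. The neutrophil sum at 3 h was 322 to 1549 with vehicle, against 169 to 592, and 55.7 to 1290 with propyzamide, against 144 to 242, and S100a9 was at 0 in both unstimulated groups. The part of these differences in the GTPase changes was not tested.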

How the data were processed

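Per the labels, libraries followed SMART-seq2, and they were quantified with kallisto on GRCm38 per the submitters' processing notes, with no version given. The deposited files hold expected counts for 142604 transcripts, per the file headers. They also hold TPM, per the file headers, and 2 length columns of other units that the authors deposited were not used as measurements. Expected counts were summed to 55401 genes by the gene field of the transcript name and rounded. Groups came from the labels, and replicates were numbered in record order.

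Counts were tested with edgeR 4.0.16 (R 4.3.3): filterByExpr, TMM, 1 coefficient per group over 24 libraries, and the quasi-likelihood F test, with Benjamini-Hochberg adjustment over 3799 genes in each of 11 comparisons and a threshold of 0.05. The common dispersion was 0.215. The script was tested on simulated data. All 9 GTPases are named in each comparison, and of each gene list those called or otherwise up to 2 with the smallest p, except for results not reported here. The members and lists were chosen with earlier results of these data known. Alternatives were RLE scaling, no filter, DESeq2 1.42.0, limma 3.58.1 (voom, and trend on log2(TPM + 1)), only the groups compared, named protein-coding genes only, and each library left out. Leaving out the deepest library and summing the Tgtp pair were added after the data were seen. Sequence of Iigp1 is not used here, and some results of the gene lists are not reported here.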

Additional observations from a re-analysis of the deposited data

Results flagged for a closer look

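Of the 54 sets of 4 libraries (9 genes in 6 groups), 4 held a library far from the other 3, where the gap to the nearest one, as a share of the range, passed Dixon's critical value. Chance gives about 1 in 20 sets where values spread normally, and small counts with many at 0 need not keep that rate. Gbp6 and Tgtp1 each had 3.60 CPM in propyzamide unstimulated replicate 2 and 0 in the other 3 libraries of that group. Such a set passes whatever the size of its lone value. Igtp had 25.2 CPM in propyzamide 24 h replicate 3, the deepest library, against 6.51 to 8.13 CPM in the others. Tgtp1 had 16.4 CPM in vehicle 24 h replicate 1, against 0 to 1.72 CPM in the others, where nearly all of the count of the Tgtp pair was placed on Tgtp2.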

How the results depend on the processing

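No paired analysis was possible because the labels give no replicate numbers. The number of the 9 GTPases called at 3 h with vehicle was 1, and became 2 without the filter, with DESeq2 and without the deepest library, 3 among named protein-coding genes only, and 0 with limma-voom and limma-trend; leaving out 1 library gave 1 to 3. With only the groups compared it was 0, but the filter then left 1 of the 9 and not Gbp2, so that setting does not test the call. At 24 h with vehicle it was 1, and became 2 without the filter, with DESeq2, without the deepest library and with the Tgtp pair summed, 3 among named protein-coding genes, and 0 with limma-trend; leaving out 1 library gave 0 to 1. With limma-voom it stayed 1, but the gene was Irgm1 (2.20, adjusted p = 0.0425) in place of Gbp2. With only the groups compared it also stayed 1, but the gene was Tgtp2 (3.62, edgeR adjusted p = 0.00309). The filter left Gbp2 out there, so that setting does not test its call. At 3 h with propyzamide it was 1, and became 2 without the filter and among named protein-coding genes, and 0 with limma-voom, limma-trend and only the groups compared, where 1 of the 9, Gbp2, was tested; leaving out 1 library gave 0 to 1. At 24 h with propyzamide it was 0, and became 3 without the filter, 2 with DESeq2 and 1 with the Tgtp pair summed. For propyzamide at 24 h against 3 h it was 0, and 1 with limma-trend.

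Changes of sign were listed for every member against unstimulated libraries and, in the other 7 comparisons, for those with the lowest and highest value and the smallest p. The cause was not tested. The remaining 48 member values of those 7 comparisons had 893 values over the settings, of which 149 had the opposite sign and 0 were called. Iigp1 at 3 h with vehicle became -0.0170 with RLE, -0.0157 with DESeq2, -0.16 without the filter and -0.21 with limma-trend, and ran from -0.33 to 0.44 with 1 library left out (-0.06, -0.27, -0.04 and -0.33 in the fits below 0). Gbp6 in that comparison became -1.11 with limma-voom, -0.0902 with limma-trend and -1.20 without vehicle 3 h replicate 4 (range -1.20 to 1.08). Tgtp1 at 24 h with vehicle became -1.40 without replicate 1 (range -1.40 to 3.23). Ifi47 for propyzamide against vehicle at 3 h became 0.0937 with limma-voom and 0.0713 without vehicle 3 h replicate 4 (range -1.04 to 0.0713). The Gbp2 interaction at 3 h became 0.0441 with limma-trend. The Tgtp pair for propyzamide against vehicle at 24 h became 0.0717 with RLE, 0.0667 with DESeq2, 0.57 with limma-trend, 0.0532 with only the groups compared and 0.18 without vehicle 24 h replicate 1 (range -0.60 to 0.18).

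For the Tgtp pair, the 24 h call with vehicle was lost with limma-trend (1.63, adjusted p = 0.21), and that with propyzamide with limma-voom (3.26, 0.16), limma-trend (2.46, 0.0964) and only the groups compared (3.36, 0.0614). The pair was called at 3 h with propyzamide among named protein-coding genes (2.65, adjusted p = 0.0403). Of the listed single values over the settings other than leaving out each library in turn, 406 held direction and side of the threshold, 21 newly passed, 11 no longer passed and 12 changed sign. The chief limit is depth: with 8 to 339 family counts in 23 of the libraries, single-gene values rest on few reads.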
